A study of Mus musculus with 6 samples.

Results

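The copine family of the mouse holds the 9 genes *Cpne1* to *Cpne9*, and all 9 were found by name among the 55421 genes of a count table from 6 hippocampal RNA-seq libraries. The family was chosen by measured values of these same libraries, the difference of *Cpne6* and *Cpne9* between the libraries labelled SP and vehicle, so that this difference is given as a description for every member, and the calls of a fit over all genes are listed only beside their share of all tested genes. The libraries came from wild-type male C57BL/6N mice 8 to 10 weeks old at the time of use. One group of 3 mice received substance P (SP), a neuropeptide of sensory nerves, under the skin at 10 µM in 100 µL for 14 days, and a vehicle group of 3 mice received saline in the same volume. Each mouse gave 1 stranded mRNA library, and the mice numbered 1, 2 and 3 in each group belonged to batches of the same number. The deposited values are estimated counts per gene, and the libraries held 23105903, 24560605 and 27605935 counts with the vehicle label and 23608419, 24284625 and 22349964 with the SP label. All directions follow the labels as given, and no measure used here settles whether they are right. *Mef2c*, which the paper on these libraries lists among the genes higher with SP, had a log2 fold change of -0.44 here. Its means were 147 CPM with the vehicle label and 108 CPM with the SP label. *Mef2c* is given as an example, and the directions of other genes named in the text of the paper are not given here. Whether the labels or the direction in the paper are turned was not tested. If the labels were the other way round, every difference between SP and vehicle printed here would have the opposite sign. The library of SP mouse 2 (SP 2) stood apart from the others in several copines and cell type markers, and that of SP mouse 1 (SP 1) in choroid plexus markers, with *Ttr* at 125 CPM against 2542 to 4299.7 CPM in the other 5, and copine differences that a single library moved most are also given without it. CPM are counts scaled to the normalized library size.

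Copines are cytosolic proteins that bind membrane phospholipids when the calcium concentration of the cell rises. A pair of C2 domains, the calcium-dependent membrane-binding modules also found in synaptotagmins and protein kinase C, stands at the amino-terminal end, and a domain related to the A domain of von Willebrand factor, which binds other proteins, stands at the carboxy-terminal end. *Cpne6*, also called neuronal copine, is the member best known in the hippocampus, where its protein moves to the membranes of dendritic spines upon calcium entry and acts on Rac1 and the actin cytoskeleton. *Cpne1* and *Cpne3* are known from many tissues.

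The members are separate genes with related coding sequences. *Cpne6* (ENSMUSG00000022212) was the most compact, with 6987 bases on the plus strand of chromosome 14, chr14:55510445-55517431 of GRCm38. *Cpne9* (ENSMUSG00000030270) lies at chr6:113282307-113305627 on the plus strand, and *Cpne4* (ENSMUSG00000032564) spans 487259 bases at chr9:104547286-105034544, also on the plus strand. *Cpne2* and *Cpne7* were the members that share a chromosome, at chr8:94532990-94570531 and chr8:123117374-123135182. The remaining members lie on the minus strand, *Cpne1* at chr2:156071842-156111965, *Cpne3* at chr4:19519254-19570108, *Cpne5* at chr17:29155556-29238167 and *Cpne8* at chr15:90487482-90679432.

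Aligned over their longest coding transcripts, the 9 members fell into 3 groups of higher identity. Within the group of *Cpne5*, *Cpne8* and *Cpne9*, 68.9% to 73.4% of aligned coding bases were identical, and these genes have 20 or 21 coding exons. Within the group of *Cpne4*, *Cpne6* and *Cpne7* the identity was 65.1% to 67.2%, and within that of *Cpne1*, *Cpne2* and *Cpne3* it was 62.5% to 64.7%, with 15 coding exons in each of these 6 genes. Between the groups the identity was 53.3% to 59.5%. The coding sequences, without the stop codon, ran from 1599 bases in *Cpne3* to 1779 bases in *Cpne5*.

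**Figure D1:**
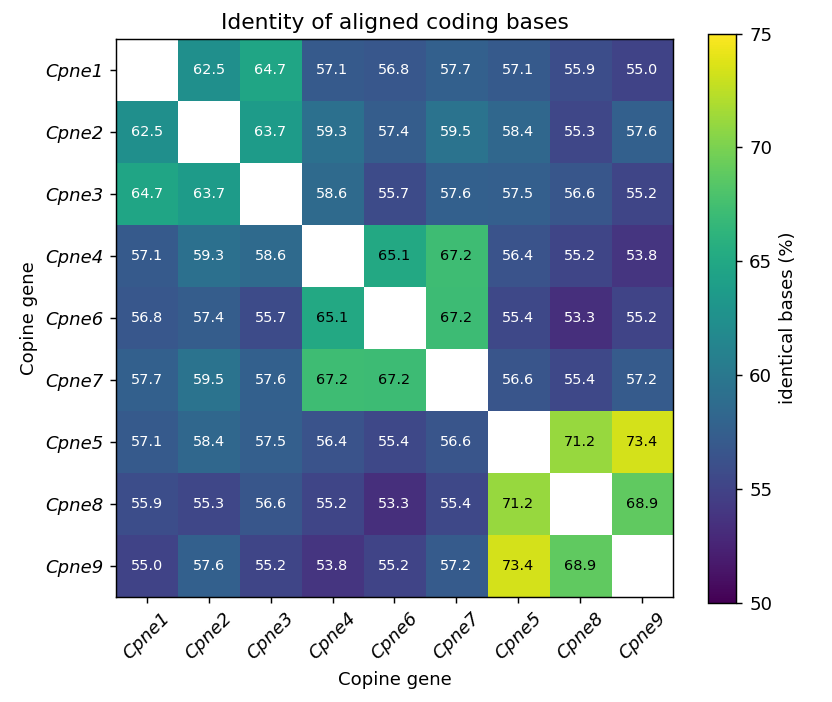
Share of identical bases (%) among the aligned coding bases of each pair of copines, with the members of the 3 groups set side by side on both axes. The highest value is the 73.4% of *Cpne5* and *Cpne9* and the lowest the 53.3% of *Cpne6* and *Cpne8*.

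The stretch of 60 aligned bases with the most identical bases is printed for all members, since it shows how far the genes can be told apart by sequence even where they are most alike. It lies toward the end of the coding sequence, at bases 1362 to 1421 in *Cpne6*, in 1 exon at chr14:55516589-55516648 on the plus strand. Capitals mark the 31 bases that are the same in every member, and the sequences are those of GENCODE M21 transcripts on GRCm38, 5′ to 3′ in the direction of the gene.
Cpne6: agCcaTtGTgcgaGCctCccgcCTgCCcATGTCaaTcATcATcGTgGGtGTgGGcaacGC
Cpne7: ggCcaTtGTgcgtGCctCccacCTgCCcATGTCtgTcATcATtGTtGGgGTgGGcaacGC
Cpne4: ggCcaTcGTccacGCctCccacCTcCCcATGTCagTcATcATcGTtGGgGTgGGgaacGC
Cpne2: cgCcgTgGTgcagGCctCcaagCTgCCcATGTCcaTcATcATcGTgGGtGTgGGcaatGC
Cpne1: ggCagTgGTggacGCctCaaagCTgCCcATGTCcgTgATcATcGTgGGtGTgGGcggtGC
Cpne3: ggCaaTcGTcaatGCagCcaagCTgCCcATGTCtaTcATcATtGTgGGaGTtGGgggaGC
Cpne9: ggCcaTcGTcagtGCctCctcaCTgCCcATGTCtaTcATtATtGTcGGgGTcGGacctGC
Cpne8: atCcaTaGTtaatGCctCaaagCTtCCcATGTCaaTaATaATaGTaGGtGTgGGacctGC
Cpne5: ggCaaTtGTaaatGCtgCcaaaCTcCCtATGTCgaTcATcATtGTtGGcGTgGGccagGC
In this stretch *Cpne7* differed from *Cpne6* at 8 bases, *Cpne2* at 10 and *Cpne4* at 11, while *Cpne1*, *Cpne3*, *Cpne5*, *Cpne8* and *Cpne9* differed at 17 to 20. Over the whole alignment 430 of the 1548 columns without a gap, or 27.8%, held the same base in all 9 genes.

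Little of the transcript sequence was shared exactly between members. Of all the 31-base sequences in their transcripts, any member shared at most 2 with other copines. *Cpne2*, *Cpne4*, *Cpne6* and *Cpne9* shared between 0 and 0.826% of theirs with any other gene, and *Cpne3*, *Cpne5*, *Cpne7* and *Cpne8* between 1.12% and 9.03%. *Cpne1* (ENSMUSG00000074643) shared 78.7%, because 3755 of its exon bases are also annotated as exons of *Gm28036* on the same strand and 404 as exons of *Rbm12*, so that its counts are uncertain. Smaller overlaps were annotated between *Cpne7* and the microRNA gene *Mir7080*, 67 bases on the same strand, and on the opposite strand between *Cpne5* and AC162182.2, 146 bases, and between *Cpne9* and *Gm43935*, 3 bases.

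Levels were compared between members as CPM divided by the kilobases of annotated exon of each gene. Per length, *Cpne6* had the highest level of the family, with 138 ± 2.72 CPM per kilobase in the vehicle libraries and 161 ± 9.67 in the SP libraries (mean ± SD, n = 3 each). It ranked 167 of 17050 tested genes with an annotated length. *Cpne7* followed with 73.6 ± 4.36 and 73.8 ± 14.4 CPM per kilobase and ranked 443. These are 2 of the 3 members in the group of *Cpne4*, *Cpne6* and *Cpne7*.

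*Cpne4*, the other member of that group, had 17.7 ± 0.495 CPM per kilobase in the vehicle libraries and 20.5 ± 2.80 in the SP libraries. *Cpne2* had 15.6 ± 0.227 and 13.5 ± 2.79, *Cpne8* 6.88 ± 0.276 and 7.24 ± 0.153, and *Cpne1* 7.16 ± 0.329 and 6.35 ± 0.924. The lowest levels were those of *Cpne3*, with 2.69 ± 0.339 and 2.35 ± 0.178, *Cpne9*, with 1.81 ± 0.0909 and 2.32 ± 0.508, and *Cpne5*, with 1.74 ± 0.158 and 1.5015 ± 0.173 CPM per kilobase. *Cpne9*, whose difference between the labels is described below, was thus among the scarcer members, and 35.8% of the tested genes had a lower level per length.

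The order of levels was tested between neighbours within each library, by an exact two-sided sign-flip permutation test over the 6 libraries. The neighbours were set by the mean levels in these same libraries, which the p values do not allow for. For 5 of the 8 pairs the order was the same in 6 of 6 libraries, which gives an exact p of 0.03125, the smallest that 6 libraries allow, and an adjusted p of 0.05 by the Benjamini-Hochberg method over the 8 pairs. *Cpne6* was 2.04 times as high as *Cpne7*, with a range of 1.80 to 2.88 over the libraries, and *Cpne7* 3.86 times as high as *Cpne4*. *Cpne4* was 1.32 times as high as *Cpne2*, *Cpne2* 2.03 times as high as *Cpne8*, and *Cpne1* 2.68 times as high as *Cpne3*. With this length the other neighbours did not differ beyond their spread. *Cpne8* was higher than *Cpne1* in 4 of 6 libraries (ratio 1.05, adjusted exact p = 0.469), *Cpne3* was higher than *Cpne9* in 5 of 6 (ratio 1.23, adjusted exact p = 0.143), and *Cpne9* was higher than *Cpne5* in 4 of 6 (ratio 1.26, adjusted exact p = 0.143).

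**Figure D2:**
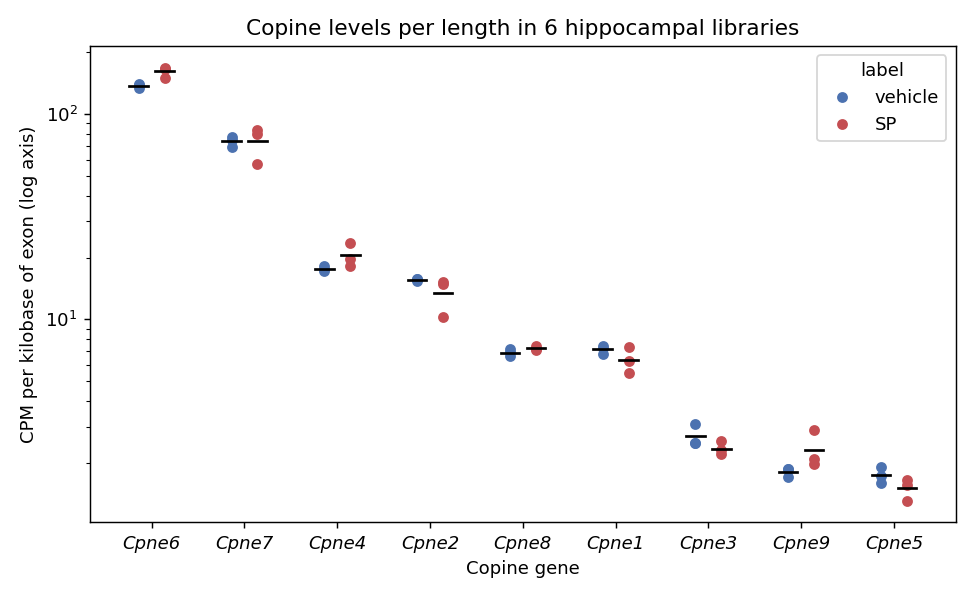
Level of each copine in CPM per kilobase of annotated exon (log axis), with a point for each library and a line at the mean of each label (n = 3). *Cpne6* and *Cpne7* stand above the other members in each library, and *Cpne3*, *Cpne9* and *Cpne5* stand together at the lower end.

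The last 3 places and the size of some ratios depend on which length is used. With the longest transcript of each gene *Cpne9* stood at rank 7 and *Cpne3* at rank 8, and with the median transcript *Cpne5* stood at rank 7 and *Cpne3* at rank 9. The first 6 places, from *Cpne6* to *Cpne1*, were the same with all 3 lengths. The place of *Cpne1* rests on its own uncertain counts, at 24.7 to 33.5 CPM, against 44.3 to 49.7 CPM when summed with *Gm28036*. With the median transcript *Cpne7* was 1.94 times as high as *Cpne4*, and *Cpne2* was higher than *Cpne8* in 5 of 6 libraries. *Cpne8* was higher than *Cpne1* in 6 of 6 libraries with the median transcript (ratio 1.18) and in 3 of 6 with the longest. *Cpne9* was higher than *Cpne5* in 6 of 6 with the longest transcript (ratio 1.33) and in 1 of 6 with the median one. *Cpne6* was 1.46 times as high as *Cpne7* with the longest transcript and 1.81 times with the median one.

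The difference between the labels is described next, first for the group with the 2 most abundant members. *Cpne6* was expressed at 592, 593 and 573 CPM in the vehicle libraries 1, 2 and 3 and 717, 703 and 639.6 CPM in the SP libraries 1, 2 and 3. Every SP library lay above every vehicle library. The log2 fold change was 0.23 ± 0.057 (SE), with 0.27, 0.25 and 0.16 for the mice of batches 1, 2 and 3. The libraries held 13786 to 16943 counts for *Cpne6*, for which counting error alone gives a coefficient of variation of at most 0.852%, against 1.98% among the vehicle libraries and 5.99% among the SP libraries. Fits that left out 1 library at a time, run without the batch term and chosen after seeing the data, gave a log2 fold change between 0.20 and 0.27. The values without a library given for other genes come from the same fits. With all 6 libraries, leaving out the batch term alone moved the log2 fold change of a member by at most 0.019.

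*Cpne7*, the member closest to *Cpne6* in level, had 393, 407 and 362 CPM in the vehicle libraries and 443, 302 and 421 CPM in the SP libraries. Its SP libraries lay on both sides of the vehicle range, with the library SP 2 the lowest of all 6 and SP 1 and SP 3 the highest. The log2 fold change was -0.013 ± 0.12 (SE), with 0.17, -0.43 and 0.22 for batches 1, 2 and 3. The sign was not stable. Without the batch term the value was 0.0037 with all 6 libraries, 0.16 without SP 2, -0.10 without SP 1, -0.062 without SP 3 and -0.043 without vehicle 3.

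*Cpne4* had 94.5, 99.98 and 97.1 CPM in the vehicle libraries and 108, 129.7 and 100.1 CPM in the SP libraries. SP 2 was far the highest, and SP 3 lay just above the highest vehicle library, a gap that closed when CPM was computed on library totals without TMM scaling. The log2 fold change was 0.20 ± 0.070 (SE), with 0.19, 0.38 and 0.044 for batches 1, 2 and 3. Without SP 2 it was 0.096.

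In the group of *Cpne5*, *Cpne8* and *Cpne9*, *Cpne9* had the log2 fold change of the largest size in the family with all 6 libraries, whatever its sign. Its expression was 14.7, 14.6 and 13.4 CPM in the vehicle libraries and 16.4, 22.9 and 15.6 CPM in the SP libraries. The labels did not overlap, and SP 2 stood far above the other 5 libraries. The log2 fold change was 0.34 ± 0.11 (SE), with 0.15, 0.64 and 0.21 for batches 1, 2 and 3, and without SP 2 it was 0.17. With 342 to 551 counts in a library, counting error alone gives *Cpne9* a coefficient of variation of up to 5.41%, close to the 5.02% found among the vehicle libraries and below the 21.9% among the SP libraries.

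*Cpne5*, the nearest relative of *Cpne9* in coding sequence, had 21.6, 25.8 and 23.3 CPM in the vehicle libraries and 21.1, 17.8 and 22.3 CPM in the SP libraries. The labels overlapped, with SP 2 the lowest. Its log2 fold change was -0.21 ± 0.11 (SE), -0.12 without SP 2 and -0.14 without vehicle 2. *Cpne8* had 27.5, 28.8 and 29.8 CPM in the vehicle libraries and 29.7, 30.9 and 29.9 CPM in the SP libraries. The labels overlapped in that SP 1 lay just below vehicle 3. The log2 fold change was 0.074 ± 0.065 (SE), and 0.044 without vehicle 1. The coefficient of variation of *Cpne8* was the smallest of the family within the SP label, 2.12%. This is below the 3.49% to 3.96% that counting error alone gives, so a narrow spread cannot be read as a trait of the gene.

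**Figure D3:**
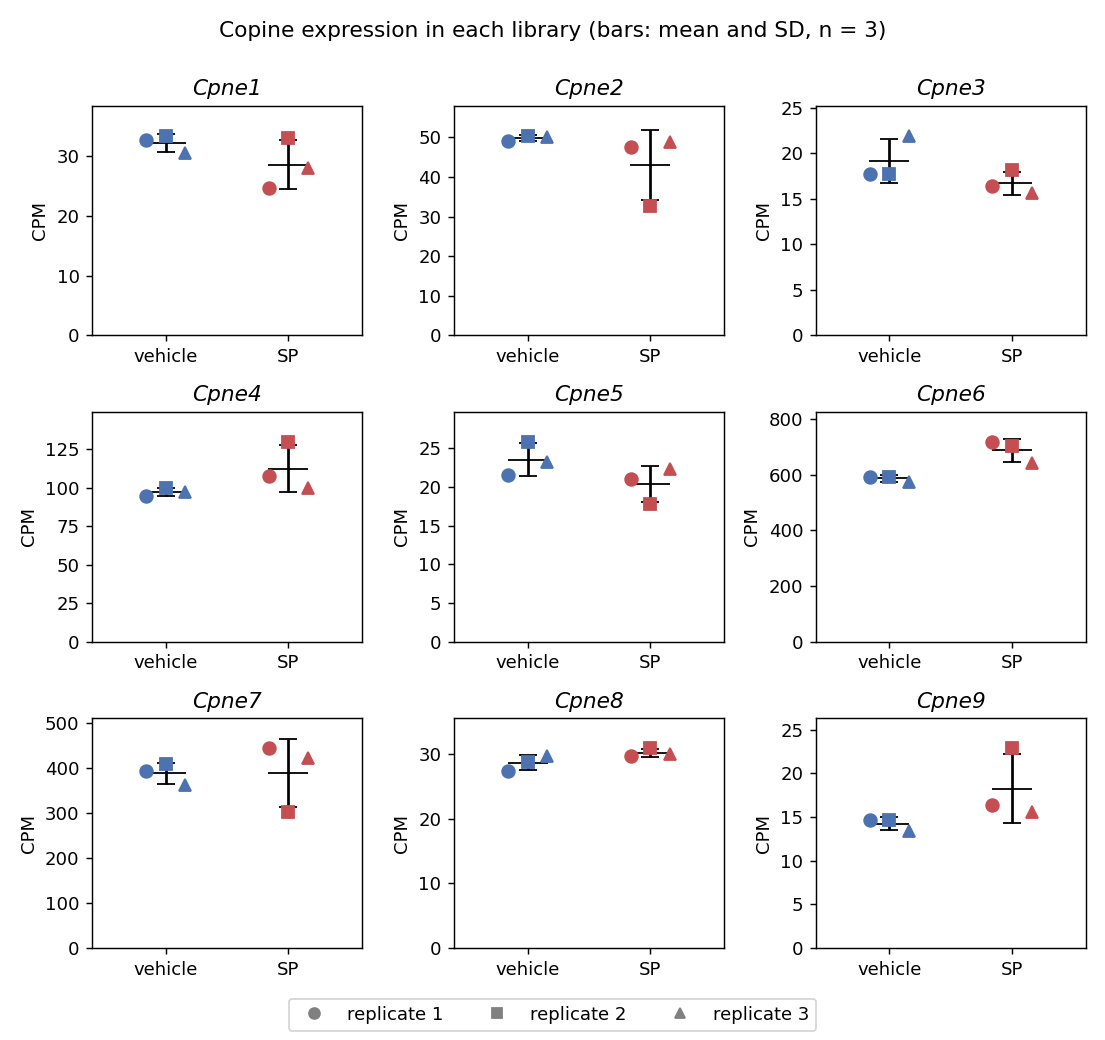
Expression of the 9 copines in CPM, with a point for each of the 3 libraries of each label, the point's shape giving the replicate number and the bars giving the mean and SD. *Cpne6* lay above the vehicle range in each SP library, at 639.6 to 717 CPM against 573 to 593 CPM, whereas the SP library of replicate 2 stands apart for *Cpne2*, *Cpne4*, *Cpne7* and *Cpne9*.

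In the group of *Cpne1*, *Cpne2* and *Cpne3*, *Cpne2* had 49.0, 50.4 and 50.1 CPM in the vehicle libraries and 47.5, 32.8 and 48.9 CPM in the SP libraries. The labels did not overlap, yet SP 1 and SP 3 lay just below the vehicle libraries and SP 2 stood far below. The log2 fold change was -0.23 ± 0.12 (SE), with -0.045, -0.62 and -0.034 for batches 1, 2 and 3, and without SP 2 it was -0.049. *Cpne3* had 17.7, 17.8 and 21.95 CPM in the vehicle libraries and 16.4, 18.1 and 15.7 CPM in the SP libraries. The labels overlapped, with vehicle 3 the highest. Its log2 fold change was -0.19 ± 0.11 (SE), and -0.085 without vehicle 3.

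*Cpne1* had 32.8, 33.5 and 30.6 CPM in the vehicle libraries and 24.7, 33.0 and 28.1 CPM in the SP libraries. The labels overlapped, with SP 1 the lowest of the 6. Its log2 fold change of -0.18 ± 0.086 (SE) became -0.078 without SP 1 and -0.29 without SP 2. *Gm28036*, which shares most of the *Cpne1* exons, had 14.0, 16.2 and 14.4 CPM in the vehicle libraries and 19.6, 16.02 and 18.9 CPM in the SP libraries, high where *Cpne1* was low. Summed, *Cpne1* and *Gm28036* had 46.8, 49.7 and 44.99 CPM in the vehicle libraries and 44.3, 49.0 and 47.1 CPM in the SP libraries, a log2 ratio of -0.011 between the group means. *Rbm12*, an RNA-binding protein gene with exons in common with *Cpne1*, had 14.1, 18.2 and 19.6 CPM in the vehicle libraries and 18.7, 18.9 and 15.9 CPM in the SP libraries, and these ranges overlapped.

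Fitted over all 17069 tested genes with edgeR's quasi-likelihood test, 0 of the 9 copines, all of which passed the filter on low counts, were called at an adjusted p (FDR) under 0.1 and |log2FC| over 0.3, a rule that called 0.0293% of all tested genes. Their adjusted p values were at least 0.349, and 3 mice against 3 allow an exact permutation p of at least 0.1 for 1 gene tested alone. At an unadjusted p under 0.05, 3 copines were higher (*Cpne4*, *Cpne6* and *Cpne9*) and 0 were lower, where this rule took 4.48% of all tested genes as higher and 5.59% as lower. These counts were not stable. Over the 18 other fits 1 to 3 copines were higher and 0 to 3 lower, beside 1.82% to 7.11% and 2.31% to 8.08% of all genes, and *Cpne6* was among the higher in 17 of them, *Cpne4* and *Cpne9* in 12 each. Without SP 2 the higher were *Cpne6* and *Cpne7* and the lower *Cpne1* and *Cpne3*, and with no filter on low counts *Cpne1*, *Cpne2* and *Cpne5* were lower. DESeq2 also called 0 of the 9 with the batch as a block, where it called 0.315% of genes, and 0 without it, where it called 0.957%, and limma-voom called 0, where it called 0.0117%. The labels did not overlap for 3 copines that were higher and 1 that was lower with the SP label, beside 9.19% and 9.03% of all tested genes. The contrast itself bore on the choice of the family, so nothing is read from these counts.

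**Figure D4:**
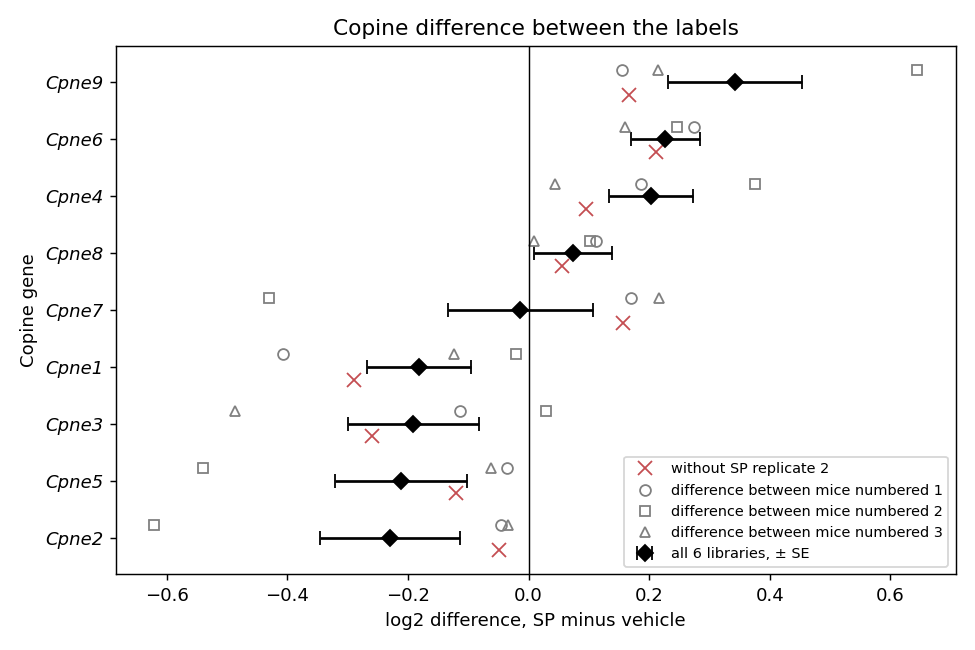
Log2 difference between SP and vehicle for each copine, with the fitted value and its SE from all 6 libraries (diamond and bar), the difference between the mice of each batch number (open symbols) and the fitted value without the library SP 2 (cross). The mice of batch 2 lie farthest from 0 for *Cpne9*, *Cpne4*, *Cpne7*, *Cpne5* and *Cpne2*, with 0.64 for *Cpne9* and -0.62 for *Cpne2*.

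Summed over the 9 members, copine expression was 1244, 1271 and 1201 CPM in the vehicle libraries and 1423, 1290.4 and 1321 CPM in the SP libraries. Each SP library lay above each vehicle library, SP 2 by the smallest margin, and on library totals without TMM scaling the labels overlapped, with SP 2 just below vehicle 2. The log2 ratio of the means was 0.12, and *Cpne6* alone held 46.6% to 54.5% of the sum and *Cpne7* 23.4% to 32.0%. Without *Cpne6* the sum was 651, 678 and 628 CPM against 706, 587 and 682 CPM, the labels overlapped, and the log2 ratio was 0.013.

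The correlation between members over the libraries depended on SP 2 for some pairs and not for others. Over the 6 libraries Pearson's r of log2 CPM was 0.97 (Spearman's rho 0.83) between *Cpne4* and *Cpne9*, and -0.96 (rho -0.94) between *Cpne2* and *Cpne9*. Without SP 2 these were 0.75 and -0.83. *Cpne2* and *Cpne5*, both low in SP 2, had r = 0.87 (rho 0.94), and 0.87 without SP 2. *Cpne6* and *Cpne9* had r = 0.78 (rho 0.89), and 0.92 without SP 2. *Cpne7* and *Cpne9* had r = -0.64 (rho 0.086), and 0.98 without SP 2. These values describe 6 libraries of 2 labels and were not tested.

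The promoters of *Cpne9* and *Cpne4* are shown because this pair of members had the highest correlation over all 6 libraries. Without SP 2 the pair with the highest was *Cpne7* and *Cpne9*. RefSeq start sites on GRCm38.p6 were matched for 6 members, *Cpne1*, *Cpne2*, *Cpne4*, *Cpne5*, *Cpne8* and *Cpne9*. The 250 bases before the *Cpne9* start, chr6:113282057-113282306 on the plus strand, and those before the second of the 2 *Cpne4* starts, chr9:104587808-104588057 on the plus strand, overlap 0 annotated exon bases. Capitals mark matches, on either strand, to the 5 motifs searched, which are TGACG, found in cAMP response elements, the E-box CACGTG, the GC box GGGCGG, the CCAAT box, and TATAAA, found in TATA boxes. No matches overlap each other in these windows.
Cpne9: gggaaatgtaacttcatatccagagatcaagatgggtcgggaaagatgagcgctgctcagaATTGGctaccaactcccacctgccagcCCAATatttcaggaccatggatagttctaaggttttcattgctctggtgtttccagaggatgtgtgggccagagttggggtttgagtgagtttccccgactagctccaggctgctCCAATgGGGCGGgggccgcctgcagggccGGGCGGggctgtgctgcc
Cpne4: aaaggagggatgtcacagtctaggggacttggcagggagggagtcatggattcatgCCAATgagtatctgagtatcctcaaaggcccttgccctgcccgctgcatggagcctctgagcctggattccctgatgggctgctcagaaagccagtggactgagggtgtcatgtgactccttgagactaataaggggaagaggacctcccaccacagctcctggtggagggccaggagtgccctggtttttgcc
The *Cpne9* window held 3 matches to CCAAT and 2 to GGGCGG, and this *Cpne4* window held 1 match to CCAAT. The window of the first *Cpne4* start, chr9:104569405-104569654 on the plus strand, with 172 of its bases in *Cpne4* exons, held 1 match to GGGCGG and 1 to CACGTG. Of 32807 such windows over all genes, 33.8% held CCAAT, 32.7% held GGGCGG, 17.8% held TGACG, 12.4% held TATAAA and 6.02% held CACGTG. The printed window of *Cpne9* had 7 CG dinucleotides and that of *Cpne4* had 1, beside a median of 6 over all windows. The window of the first *Cpne4* start, not printed, had 13.

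The markers of hippocampal cell types described here were present in every library, and some of their sums moved with the labels or with the library SP 2. In bulk tissue, fewer cells of a type and less RNA per cell cannot be told apart. Markers of CA2 and CA3 pyramidal cells (7 of 7 tested, *Rgs14* the most abundant at 90.6 CPM) summed to 225, 225 and 219 CPM in the vehicle libraries and 245, 272 and 242 CPM in the SP libraries, highest in SP 2 as were *Cpne4* and *Cpne9*. The markers did not all move alike. Without overlap of the labels 4 were higher and 1 was lower with SP, beside 9.19% and 9.03% of all tested genes. The lower one, *Coch*, had 13.0, 11.8 and 13.0 CPM against 7.33, 8.88 and 11.8 CPM. *Amigo2* and *Map3k15* overlapped.

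Dentate granule cell markers (5 of 5 tested, *Prox1* the most abundant) summed to 269, 281 and 289.9 CPM against 343, 387 and 252 CPM, highest in SP 1 and SP 2, the libraries in which *Cpne6* was highest. In SP 3 the likeness failed. This sum was lowest there, whereas *Cpne6*, at 639.6 CPM, lay above every vehicle library. Neocortical layer markers (7 of 7 tested, *Tle4* the most abundant) summed to 218, 204 and 209.6 CPM against 187, 168 and 197 CPM. GABAergic interneuron markers (4 of 4 tested, *Gad1* the most abundant) summed to 562, 625 and 578 CPM against 569, 445 and 598 CPM, and subiculum markers (3 of 3 tested, *Fn1* the most abundant) to 97.0, 108 and 104 CPM against 94.9, 74.9 and 92.0 CPM. These 3 sums were lowest in SP 2, where *Cpne2*, *Cpne5* and *Cpne7* were also lowest. Not every marker followed its sum. *Slc17a6* of the subiculum list and *Tle4* of the neocortical list were lowest in SP 1, at 11.3 and 46.7 CPM. *Rorb* of the neocortical list was lowest in SP 3, at 15.1 CPM, and *Rspo1* of that list was highest in SP 2, at 1.95 CPM. The other markers of these 3 lists were lowest in SP 2.

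Choroid plexus markers (5 of 5 tested, *Ttr* the most abundant) summed to 3745, 3689.7 and 4589 CPM against 160.3, 2721 and 3849 CPM, lowest in SP 1, the library in which *Cpne1* was lowest. Of the genes on the marker lists described here, 0 were at 0 in every library. Marker sums of CA1 pyramidal cells, striatal and thalamic neurons, astrocytes, microglia and endothelial cells overlapped between the labels. The part of these cell types in the copine values was not tested.

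A further 4 lists hold genes with which copines share a domain, a calcium signal or a target. Of these, 0 of 30 C2-domain calcium-dependent membrane binders, 0 of 25 genes of the Rac-cofilin spine pathway, 0 of 11 SNARE fusion genes and 0 of 15 EF-hand calcium sensors and buffers were called by edgeR, where the rule called 0.0293% of all tested genes. DESeq2 with the batch as a block and limma-voom called 0 as well, beside 0.315% and 0.0117% of all genes, and DESeq2 without the block called 2, *Cabp7* and *Hpca*, beside 0.957%. In edgeR, *Hpca* was called with no filter on low counts, beside 1.37% of all genes, and without SP 3 and the block 4 genes were called, *Cabp7*, *Doc2b*, *Hpca* and *Syt2*, beside 2.11%. The medians of the log2 fold change were -0.020, 0.012, 0.020 and 0.031, beside -0.013 over the copines and 0.0015 over all tested genes.

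The genes that carry C2 domains like the copines had 1 gene higher and 4 lower at an unadjusted edgeR p under 0.05, of 30 genes, beside 4.48% and 5.59% of all tested genes. The genes named from each list are those with the 2 highest and 2 lowest log2 fold changes, whatever their p, and of the 4 named here only *Doc2b* passed. *Doc2b*, a C2-domain calcium sensor for vesicle release, had a log2 fold change of 0.22 ± 0.086 (SE), and *Prkca*, protein kinase C alpha, 0.17 ± 0.084. *Esyt3*, an extended synaptotagmin, had -0.56 ± 0.35 at 1.12 to 4.16 CPM, and *Unc13c*, a vesicle priming gene, -0.41 ± 0.19. Both were lowest in SP 2, the library in which *Cpne2*, *Cpne5* and *Cpne7* were lowest, and *Prkca* was highest there. Without SP 2 the log2 fold change was 0.037 for *Prkca*, -0.16 for *Esyt3* and -0.19 for *Unc13c*, and without vehicle 2 it was -0.36 for *Esyt3*.

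Of the pathway from Rac to cofilin on which *Cpne6* is known to act, 1 gene was higher and 1 was lower at an unadjusted p under 0.05, of 25 genes, beside the same 4.48% and 5.59%. *Baiap2*, a Rac effector of spines, had a log2 fold change of 0.19 ± 0.057 (SE), and *Pak3*, a kinase downstream of Rac, had -0.17 ± 0.051, each without overlap of the labels, and these were the 2 that passed. *Cyfip1* had 0.12 ± 0.054 and *Limk1*, the kinase of cofilin, -0.093 ± 0.077, and without SP 2 these were 0.051 and -0.043. Without SP 3 *Limk1* had -0.15. Among the SNARE fusion genes 0 passed an unadjusted p under 0.05, and the extremes were 0.15 for *Cplx2*, 0.12 for *Napa*, -0.079 for *Stx1a* and -0.075 for *Vamp2*. Without SP 2 these were 0.098, 0.055, -0.032 and -0.038, and *Napa* had 0.19 without SP 3 and *Vamp2* -0.022 without vehicle 3.

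Among the EF-hand genes, which bind calcium by another fold than the copines, 3 of 15 were higher and 2 lower at an unadjusted p under 0.05, beside 4.48% and 5.59% of all tested genes. *Hpca*, hippocalcin, had 1085, 1084 and 1118 CPM in the vehicle libraries and 1378, 1695 and 1283 CPM in the SP libraries. As for *Cpne9*, all SP libraries were above the vehicle libraries and SP 2 was the highest. Its log2 fold change was 0.40 ± 0.092 (SE, edgeR FDR 0.335, higher in 3 of 3 batches), and that of *Cabp7* was 0.30 ± 0.061 (edgeR FDR 0.308, higher in 3 of 3). *Hpcal1* and *Caln1* had -0.22 ± 0.059 and -0.14 ± 0.059. Without SP 2 *Cabp7* had 0.20 and *Caln1* -0.081.

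**Figure D5:**
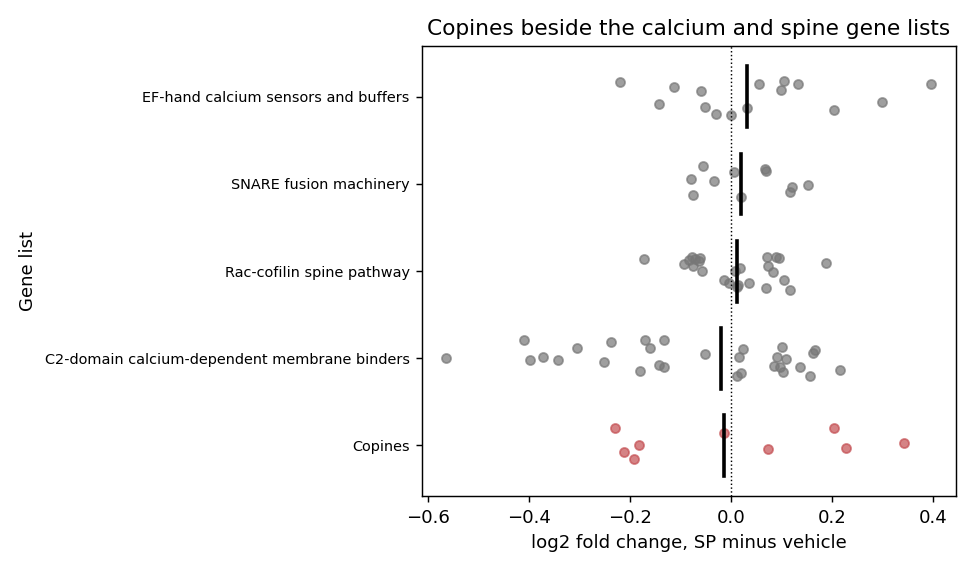
Log2 fold change between SP and vehicle of the copines (red) and of the genes on the 4 calcium and spine gene lists (grey), with a point for each gene, spread vertically only to separate the points, and a line at each median. The copines lie between -0.23 and 0.34 around a median of -0.013.

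The genes whose expression over the 6 libraries was most like that of *Cpne6*, among 10340 genes with a mean of at least 10 CPM, were *Banp*, *Hspa2*, *Dok3*, *Plch2* and *Bin1*, with Pearson's r of log2 CPM from 0.991 to 0.997. *Plch2*, a calcium-activated phospholipase C, had 144, 149 and 143 CPM in the vehicle libraries and 181, 178 and 157 CPM in the SP libraries, the same order of SP libraries as *Cpne6*. *Bin1* codes for a protein that binds and curves membranes. Those most like *Cpne9* were *Pcdh1*, *B3galt5*, *Mfn2*, *Galnt17* and *Papss1*, with r from 0.992 to 0.995. *Pcdh1*, a protocadherin, had 319, 320.4 and 310.1 CPM in the vehicle libraries and 348, 412 and 334 CPM in the SP libraries, high in SP 2 as *Cpne9* was. By rank, 43 genes put the 6 libraries in exactly the order of *Cpne6* and 79 in that of *Cpne9*, so that many patterns among 6 libraries are alike.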

How the data were processed

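Hippocampal RNA of 6 mice was analysed from the table that the authors deposited, which holds estimated counts per gene. According to the submitters' notes, the reads were trimmed with Trim Galore, aligned to GRCm38 with STAR and quantified by Salmon. Versions and the annotation are not given in the sources used here. Since 9.77% of the values were not whole, the deposited estimated counts were rounded.

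Genes were filtered by filterByExpr with the design (minimum count 10, minimum total 15), normalized by TMM and tested over all 17069 genes left with glmQLFit and glmQLFTest of edgeR 4.0.16 in R 4.3.3. The labels name the replicate number as a batch, which pairs the mice, and it was fitted as a block. Across genes, deviations from the group means correlated between mice of the same number with r = 0.0141, -0.0956 and 0.0232. Between mice of different number r ran from -0.125 to 0.110, so mice of the same number were not more alike by this measure. CPM are counts relative to the TMM-scaled library size. The counts held 16496 to 16990 genes with at least 10 counts in a library, and 3 counts, the limit that a count of 0 allows for counting error, come to 0.109 to 0.135 CPM.

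Alternatives used DESeq2 1.42.0, limma-voom 3.58.1, other scalings, no filter, no block, or left out replicates. A filter by group size, fits without 1 library each and a fit without the block on the same genes were chosen after seeing the data. The fits were tested on simulated data. Positions, lengths and coding sequences came from GENCODE M21, promoters from RefSeq on GRCm38.p6, and MAFFT 7.526 aligned the coding sequences. The members and lists were chosen with earlier results of these data known. Named genes were the copines, genes with overlapping exons, list genes called or else the 2 highest and 2 lowest log2 fold changes of each list, and the 5 genes most like *Cpne6* and *Cpne9*. Named after their values were seen were the most abundant marker of some lists, and *Mef2c* for its direction in the paper. The result of 1 marker list is not reported here.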

Additional observations from a re-analysis of the deposited data

How the results depend on the processing

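No copine was called in any of the 18 other fits of the whole table. The fitted log2 fold changes of the 9 members under these fits made 162 values, of which 28 had another sign or differed by over 1.5 times, 12 of them for *Cpne7* and 0 for *Cpne6*, a count made after seeing the data. Only that of *Cpne7* changed sign, in 7 fits. The number of genes called over the whole table, 5 with the batch as a block, moved far more. It was 2 with no replicate block, where the filter, which follows the design, left 16707 genes, and also 2 with no block on the 17069 genes of the main fit, a choice made after seeing the data. It was 2 with limma-voom, 36 by DESeq2 with the block, 132 by DESeq2 without it and 384 with no filter on low counts. It was 0 at an FDR under 0.05 and 9 to 36 without replicate 1, 2 or 3. With choices made after seeing the data it was 0 with a filter by group size, and without the block it ran from 1 without vehicle 1 to 357 without SP 3. The cause was not tested. Leaving out the block changed no call of a copine or of a list gene in edgeR.

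The summed copine expression had a log2 ratio of 0.013 without its most abundant member, *Cpne6*, and 0.079 to 0.17 without replicate 1, 2 or 3. Of the 10 genes most like *Cpne6* and *Cpne9*, 5 also had Spearman's rho of 1. On unscaled totals 3 members instead of 4 did not overlap between the labels. At 342 to 551 counts for *Cpne9*, differences of a few percent were not detectable at this depth.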
